A study of Homo sapiens with 24 samples.

Results

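The transcripts of 10 amino acid transporters of the plasma membrane, SLC7A11, SLC7A5, SLC3A2, SLC7A6, SLC1A5, SLC1A4, SLC38A2, SLC38A1, SLC7A1 and SLC6A9, were measured in 686Tu (MDA686TU) cells, an established squamous carcinoma line of the head and neck. The genes were chosen by symbol as amino acid transporters, with SLC7A11 among them, out of 60617 genes in the table. They and the gene lists below were chosen with earlier results of these data known. All 10 were among the 15476 genes with enough counts to be tested. RNA-seq was done on 4 groups of 6 libraries: no treatment (NT), EGCG, the main polyphenol of green tea, at 40 µM, resveratrol, a polyphenol of grapes, at 15 µM, and the combination at these doses, each for 24 h. All groups were the same line grown in the same medium, and RNA was isolated in 6 replicates per group. Whether these were separate cultures is not given in the sources used here, so the p-values measure the spread between these libraries. The stock of resveratrol was in DMSO and EGCG was in water. A solvent control was not described, so an effect of resveratrol cannot be told apart from one of its solvent. The line expressed all 8 epithelial markers examined (KRT5, KRT14, KRT6A, KRT17, TP63, CDH1, EPCAM and DSG3), and none of 6 leukocyte markers had enough counts to be tested.

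Amino acid carriers of the plasma membrane differ in what they carry and in what drives them. SLC3A2 is a glycoprotein heavy chain that holds several light chains at the cell surface, among them SLC7A11, which brings in cystine in exchange for glutamate, and SLC7A5, which brings in leucine and other large neutral amino acids. Cystine feeds the synthesis of glutathione, an antioxidant, and in many tumor types SLC7A11, SLC7A5 and SLC1A5 are among the most studied nutrient carriers.

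Resveratrol, alone and in the combination, upregulated some of these transporters and downregulated others. SLC1A4, SLC6A9 and SLC7A11 rose 1.69-fold, 1.46-fold and 1.38-fold with resveratrol, and SLC7A5 and SLC3A2 fell by 30.5% and 23.6%. The combination gave 2.0-fold, 1.56-fold and 1.37-fold for the same rising genes, and falls of 31.4% and 21.5%. With EGCG alone the changes were small: SLC1A4 rose by 14.4% and SLC7A5 fell by 8.03%, and the other 8 transporters did not pass the test.

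A gene was called when its Benjamini-Hochberg adjusted p, over all genes tested with edgeR's quasi-likelihood test, was below 0.1 and its unadjusted p below 0.05. With resveratrol 5 transporters were called higher and 3 lower against untreated cells, beside 28.9% and 28.0% of all genes tested. The count of lower genes was near that background. The combination also gave 5 higher and 3 lower, beside 29.9% and 29.9% of all genes. EGCG alone gave 1 higher and 1 lower, beside 0.905% and 0.859%. The median log2 fold change of the 10 transporters was 0.03 with EGCG, 0.04 with resveratrol and 0.10 for both agents, with members on both sides of 0, and over all genes tested it was under 0.01 in size in each comparison.

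**Figure D1:**
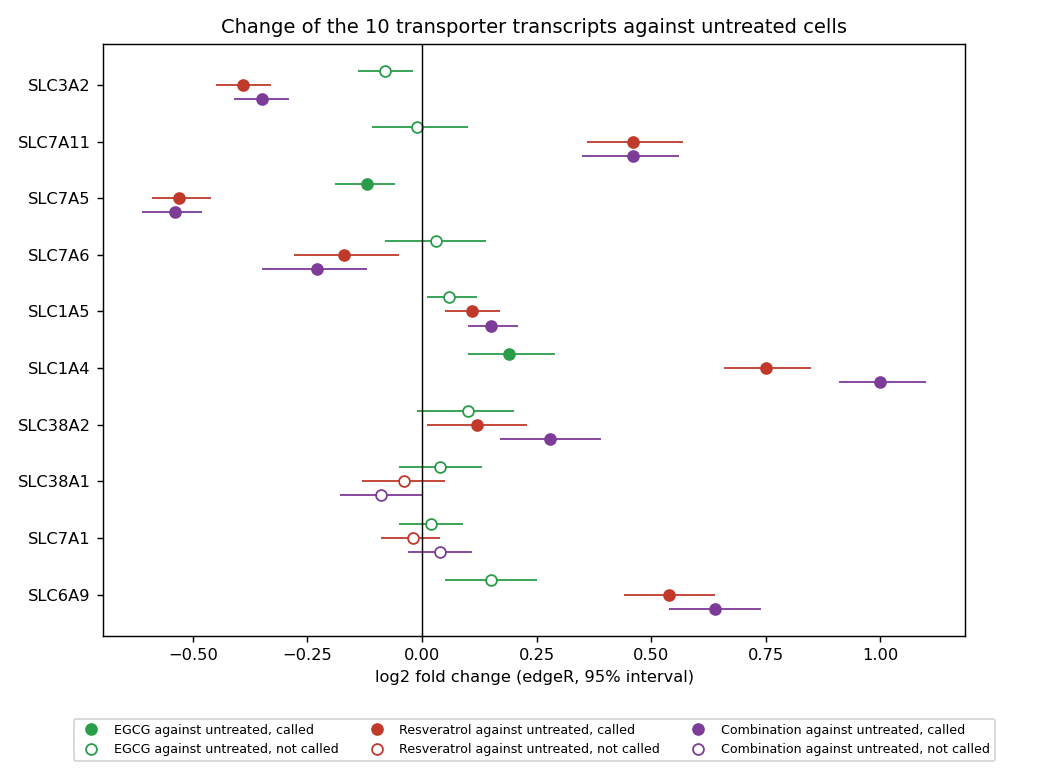
Log2 fold change (x axis) of the 10 transporter transcripts (y axis) in the 3 treated groups against untreated cells, as fitted by edgeR with its 95% interval over 6 libraries per group. Filled points were called. SLC1A4, SLC6A9 and SLC7A11 lie to the right and SLC7A5 and SLC3A2 to the left with resveratrol and the combination, at 0.75, 0.54, 0.46, -0.53 and -0.39 with resveratrol.

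The libraries held 7034872 to 11735574 counts. The third combination library stood apart: for 670 of the genes tested (4.33%) it lay away from the other 5 libraries of its group by Dixon's test, against 0.459% to 1.31% for the other 23 libraries. Replicates 1 to 3 of every group had less mitochondrial RNA (0.249% to 0.326% of counts) than replicates 4 to 6 (0.448% to 0.775%), and each of these sets holds 3 libraries of every group. Scaling by library size alone, in place of TMM normalization, moved the median of all genes by 0.09 on the log2 scale with resveratrol and turned a split of 4466 higher and 4341 lower genes into 6147 and 2857. The summed level of the 8 epithelial markers was lower with resveratrol and the combination (4322 to 4716 FPKM) than with no treatment or EGCG (5186 to 5873 FPKM). Most of this sum was KRT5, KRT14, KRT6A and KRT17, which were lower. KRT14, for example, had means of 1654, 1352 and 1307 FPKM untreated, with resveratrol and with the combination. In the same order CDH1 (66.9, 81.7 and 90.1 FPKM) and DSG3 (24.3, 32.3 and 32.8 FPKM) rose. TP63 (53.7, 52.1 and 57.0 FPKM) and EPCAM (86.8, 87.3 and 89.8 FPKM) moved little. The summed level of 6 fibroblast markers was 13.1 to 15.8 FPKM in untreated libraries and 10.7 to 13.2 FPKM with EGCG, against 15.4 to 18.4 FPKM with resveratrol and 18.0 to 20.8 FPKM with the combination. Nearly all of it was COL1A1 (means of 13.8, 11.4, 16.9 and 19.3 FPKM in these groups), while COL3A1, DCN, LUM and PDGFRB had too few counts to be tested. The part of both marker sets in the results was not tested. All groups were the same line, and in bulk RNA a change in all cells cannot be told apart from one in some of them.

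**Figure D2:**
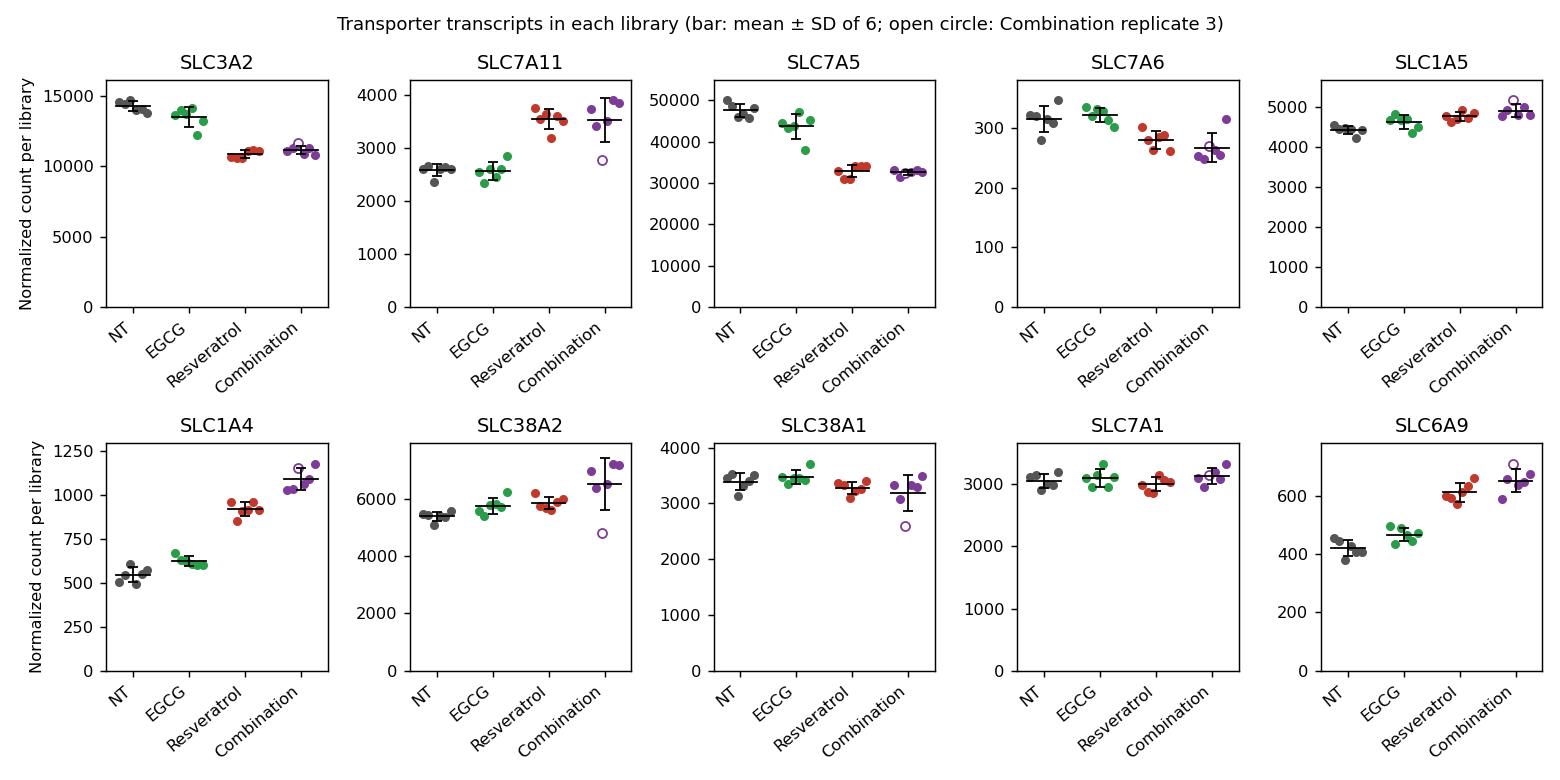
Normalized count (y axis, from 0) of each of the 10 transporters in all 24 libraries by group (x axis). Points are libraries, bars the mean ± SD of 6, and the open circle is the third combination library, which at 2786, 2595 and 4828 normalized counts is the lowest of its group for SLC7A11, SLC38A1 and SLC38A2.

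Per transcript length, the levels of the 10 transporters covered a wide range. FPKM, the deposited level per kilobase, allows this comparison between genes. In untreated cells SLC7A5 came first at 1143 ± 39.4 FPKM (SD, n = 6), rank 14 of the 15476 genes tested, followed by SLC3A2 at 316 FPKM, SLC1A5 at 153 FPKM and SLC38A2 at 95.2 FPKM. Next were SLC7A1 at 45.6 FPKM, SLC38A1 at 38.8 FPKM and SLC7A11 at 30.7 FPKM. The lowest were SLC6A9 at 9.35 FPKM, SLC1A4 at 9.0 FPKM and SLC7A6 at 4.75 FPKM. Of these neighbours only SLC6A9 and SLC1A4 overlapped between libraries. With resveratrol, SLC7A11 (42.2 FPKM) came above SLC38A1 (37.6 FPKM) and SLC1A4 (15.2 FPKM) above SLC6A9 (13.6 FPKM), although the libraries of both neighbour sets overlapped, as did those of SLC7A1 (44.7 FPKM) and SLC7A11. In the combination SLC7A11 (42.0 FPKM) overlapped both SLC7A1 (46.8 FPKM) and SLC38A1 (36.5 FPKM), and the libraries of SLC1A4 (18.0 FPKM) and SLC6A9 (14.5 FPKM) no longer overlapped.

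SLC3A2, the heavy chain, is on chromosome 11 (GRCh38, 62856004 to 62888880, plus strand). Its normalized counts were 13830 to 14689 in the untreated libraries (median 14276) and 12240 to 14115 with EGCG (median 13697). They were 10609 to 11171 with resveratrol (median 10867) and 10846 to 11632 with the combination (median 11196). Every library with resveratrol lay below every library without it. The log2 fold change was -0.39 ± 0.0277 (SE) with resveratrol (adjusted p = 2.4e-14) and -0.35 ± 0.0277 with the combination (adjusted p = 3.0e-13). EGCG alone gave -0.08 (95% interval -0.14 to -0.02, adjusted p = 0.210), which was not called.

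SLC7A11, the cystine carrier also known as xCT, lies on chromosome 4 (138164097 to 138242349, minus strand) and moved opposite to its heavy chain. The untreated libraries held 2356 to 2658 normalized counts (median 2609), and those with EGCG 2349 to 2845 (median 2577). With resveratrol the counts were 3196 to 3765 (median 3585) and with the combination 2786 to 3902 (median 3628). The resveratrol and combination libraries all lay above the untreated ones, and the lowest combination value, the third library, was below the highest EGCG value. Against untreated cells SLC7A11 rose by 0.46 ± 0.0530 on the log2 scale with resveratrol (adjusted p = 2.9e-09) and by 0.46 ± 0.0531 with the combination (adjusted p = 3.7e-09). Without the third combination library the latter was 0.51 (adjusted p = 4.29e-13). EGCG alone gave -0.01 (95% interval -0.11 to 0.10, adjusted p = 0.989). The rise with resveratrol was 0.53 within replicates 1 to 3 and 0.39 within replicates 4 to 6, called in both.

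SLC7A5, the leucine carrier also known as LAT1, is on chromosome 16 (87830023 to 87869507, minus strand) and was the transporter with the largest fall. Its normalized counts were 45745 to 49952 in untreated libraries (median 47394) and 38065 to 47134 with EGCG (median 44130). With resveratrol they were 31059 to 34155 (median 33540) and with the combination 31391 to 33091 (median 32645). The resveratrol and combination libraries lay below all libraries without resveratrol. The log2 fold change was -0.53 ± 0.0325 with resveratrol (adjusted p = 4.6e-16) and -0.54 ± 0.0325 with the combination (adjusted p = 1.3e-16). For EGCG alone it was -0.12 ± 0.0324 (adjusted p = 0.0509), with all 6 libraries below the untreated mean but overlapping the untreated range. This call was lost without any 1 of NT replicates 1, 2 and 6 and EGCG replicates 3 and 5 (adjusted p = 0.159, 0.130, 0.111, 0.102 and 0.136), and within replicates 1 to 3 (-0.13, adjusted p = 0.118) and replicates 4 to 6 (-0.11, adjusted p = 0.514).

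SLC7A6, a light chain that exchanges basic for neutral amino acids, also on chromosome 16 (68264516 to 68301823, plus strand), had few counts. The untreated libraries held 280 to 346 normalized counts (median 317), those with EGCG 302 to 334 (median 324), those with resveratrol 260 to 301 (median 283) and those with the combination 248 to 315 (median 258). All groups overlapped the untreated one. SLC7A6 fell by 0.17 ± 0.0555 on the log2 scale with resveratrol (adjusted p = 0.0117) and by 0.23 ± 0.0567 with the combination (adjusted p = 6.7e-04). With resveratrol it was not called within replicates 1 to 3 (-0.12, adjusted p = 0.253) or after scaling by library size alone (-0.08, adjusted p = 0.245). Of its exon bases, 44.4% overlap the antisense gene SLC7A6OS (mean 144 normalized counts), and the strand setting of the counting is not given in the sources used here.

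Because the heavy chain fell, the light chains were also set against it within each library, as a percentage of the SLC3A2 FPKM. SLC7A11 stood at 8.61% to 10.1% of SLC3A2 in untreated libraries and 8.98% to 11.6% with EGCG, against 15.5% to 19.0% with resveratrol and 12.9% to 19.0% with the combination. The lowest combination value was again the third library. SLC7A5 was in excess of SLC3A2 in every library, at a mean of 362% ± 13.4 (SD, n = 6) in untreated cells, 351% ± 14.1 for EGCG, 329% ± 8.61 for resveratrol and 317% ± 11.1 for the combination. SLC7A8, another leucine-type light chain that is not among the 10, went from 9.97% to 10.8% in untreated cells to 24.3% to 25.7% with resveratrol and 22.2% to 24.7% with the combination. These ratios are a description, with no test.

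**Figure D3:**
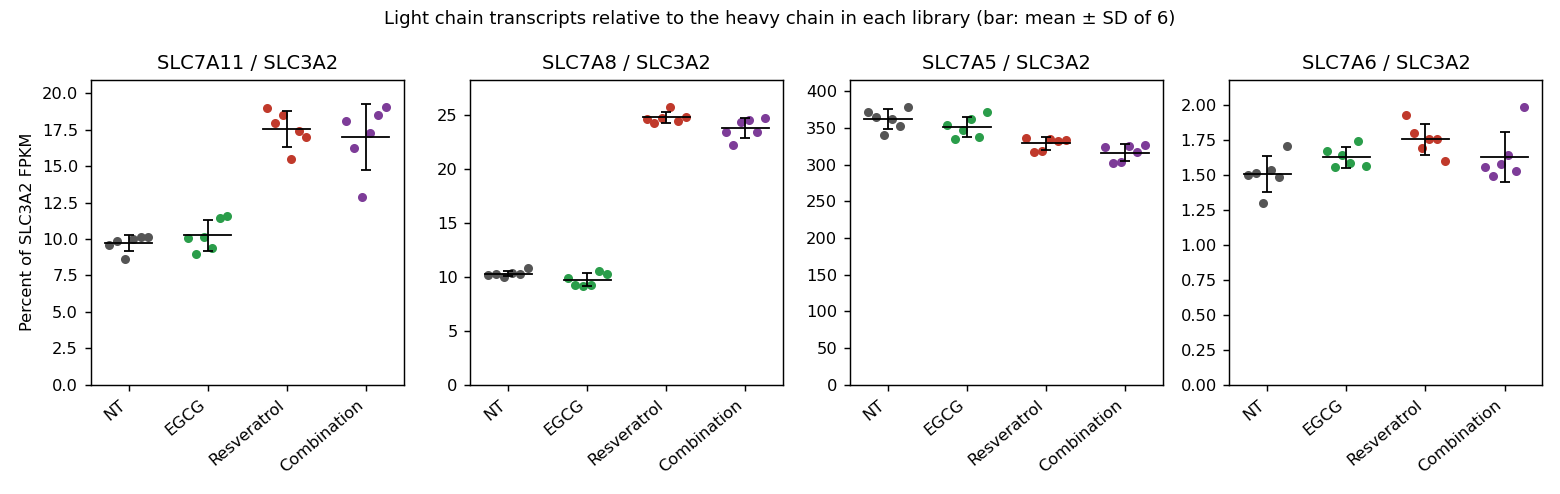
FPKM of 4 light chains as a percentage of the SLC3A2 heavy chain FPKM (y axis, from 0) in each library by group (x axis). Bars are the mean ± SD of 6 libraries. SLC7A11 and SLC7A8 move up with resveratrol and the combination (means of 9.72% and 10.3% in untreated cells against 17.5% and 24.8% with resveratrol).

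SLC1A4, a carrier of alanine, serine and cysteine also called ASCT1, changed most among the 10 in fold terms. It lies on chromosome 2 (64988477 to 65023865, plus strand). Its normalized counts were 494 to 607 in the untreated libraries (median 547), 598 to 671 with EGCG (median 616), 851 to 961 with resveratrol (median 914) and 1025 to 1177 with the combination (median 1076). The 4 groups formed steps, with an overlap only between untreated and EGCG libraries. The log2 fold change was 0.19 ± 0.0479 with EGCG (adjusted p = 0.0279), 0.75 ± 0.0461 with resveratrol (adjusted p = 3.4e-16) and 1.00 ± 0.0459 with the combination (adjusted p = 6.8e-20). The call with EGCG alone was lost without NT replicate 1 or 4 or EGCG replicate 1 (adjusted p = 0.105, 0.105 and 0.108), and within replicates 1 to 3 (0.23, adjusted p = 0.269) and replicates 4 to 6 (0.16, adjusted p = 0.461).

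SLC1A5, the related glutamine carrier ASCT2, on chromosome 19 (46774883 to 46788594, minus strand), changed little. The untreated libraries held 4232 to 4555 normalized counts (median 4469), those with EGCG 4355 to 4839 (median 4689), those with resveratrol 4639 to 4924 (median 4761) and those with the combination 4793 to 5176 (median 4878). Resveratrol and combination libraries were all above the untreated ones, by a small margin. The rise was 7.89% with resveratrol (adjusted p = 0.00117) and 11.2% with the combination (adjusted p = 1.5e-05). Within replicates 1 to 3 the rise with resveratrol was not called (log2 fold change 0.07, adjusted p = 0.132). EGCG alone gave 0.06 (95% interval 0.01 to 0.12, adjusted p = 0.389).

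SLC38A2 and SLC38A1, sodium-coupled carriers of small neutral amino acids and glutamine, are both on chromosome 12 (46358188 to 46372773 and 46183063 to 46270017, minus strand). SLC38A2 held 5108 to 5596 normalized counts in untreated libraries (median 5438), 5420 to 6240 with EGCG (median 5762), 5641 to 6211 with resveratrol (median 5834) and 4828 to 7244 with the combination (median 6761). In the combination 5 libraries held at least 6401 normalized counts, above all libraries of the other groups, and the third held the lowest count of all 24. SLC38A2 rose by 0.12 ± 0.0541 on the log2 scale with resveratrol (adjusted p = 0.0540) and by 0.28 ± 0.0542 with the combination (adjusted p = 4.7e-05), the latter 0.35 without the third library (adjusted p = 5.39e-11). The call with resveratrol was lost without NT replicate 3 (adjusted p = 0.118), without Resveratrol replicate 1 (adjusted p = 0.121), within replicates 1 to 3 (0.15, adjusted p = 0.109) and with DESeq2 (adjusted p = 0.139).

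SLC38A1 held 3131 to 3522 normalized counts in untreated libraries (median 3432), 3349 to 3712 with EGCG (median 3454), 3100 to 3405 with resveratrol (median 3297) and 2595 to 3493 with the combination (median 3317). All groups overlapped. No treatment against untreated cells was called, with log2 fold changes of 0.04 (95% interval -0.05 to 0.13) for EGCG, -0.04 (-0.13 to 0.05) for resveratrol and -0.09 (-0.18 to 0.00) for the combination. The combination value was -0.03 without the third library (adjusted p = 0.410), and it was called lower without NT replicate 3 or any 1 of Combination replicates 1, 4, 5 and 6 (adjusted p = 0.0378, 0.0727, 0.0681, 0.0791 and 0.0307), and within replicates 1 to 3 (-0.16, adjusted p = 0.0303).

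SLC7A1, the main carrier of arginine and lysine (CAT1), on chromosome 13 (29509414 to 29595688, minus strand), was not called in any comparison. Its normalized counts were 2904 to 3196 in untreated libraries (median 3067), 2956 to 3334 with EGCG (median 3114), 2863 to 3154 with resveratrol (median 3019) and 2960 to 3333 with the combination (median 3126). The ranges of all 4 groups overlapped. The 95% intervals of the log2 fold change were -0.05 to 0.09 for EGCG, -0.09 to 0.04 for resveratrol and -0.03 to 0.11 for the combination. After scaling by library size alone the combination was called higher (0.12, adjusted p = 0.00123).

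SLC6A9, the glycine carrier GLYT1, on chromosome 1 (43991500 to 44031467, minus strand), moved like SLC1A4. The untreated libraries held 380 to 455 normalized counts (median 418), those with EGCG 435 to 495 (median 469), those with resveratrol 574 to 661 (median 606) and those with the combination 587 to 710 (median 652). All libraries with resveratrol lay above all libraries without it. SLC6A9 rose by 0.54 ± 0.0479 on the log2 scale with resveratrol (adjusted p = 6.6e-12) and by 0.64 ± 0.0480 with the combination (adjusted p = 6.7e-14). EGCG alone gave 0.15 (95% interval 0.05 to 0.25, adjusted p = 0.163), with 6 of 6 libraries above the untreated mean, and without the third combination library the adjusted p was 0.0963, which was called.

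In all, 7 of the 10 transporters had no overlap between resveratrol and untreated libraries, beside 31.0% of all genes tested, and 6 had none between combination and untreated libraries, beside 31.9%. For EGCG the count was 0, beside 1.58%.

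The question of what EGCG added to resveratrol was tested by setting the combination against resveratrol alone. Of the 10 transporters, only SLC1A4 was called, higher by 18.8% (log2 fold change 0.25 ± 0.0436, adjusted p = 2.5e-04), beside 4.01% of all genes called higher and 3.86% called lower. Its libraries did not overlap between the groups (851 to 961 against 1025 to 1177 normalized counts), as was the case for 3.20% of all genes. SLC38A2 was 11.1% higher, just short of a call (0.15 ± 0.0541, adjusted p = 0.102). It was called without the third combination library (0.22, adjusted p = 2.80e-05), without NT replicate 3 (adjusted p = 0.0997) and without Resveratrol replicate 1 (adjusted p = 0.0921). Within replicates 4 to 6 SLC38A2 was also called (0.26, adjusted p = 6.38e-05), but not within replicates 1 to 3 (0.04, adjusted p = 0.840). For the 8 others the log2 fold change was -0.07 to 0.10, with the widest interval for SLC7A6 (-0.18 to 0.05). SLC7A11 gave -0.01 (95% interval -0.12 to 0.10, adjusted p = 0.961), and 0.05 without the third library. The sets of replicates differed in sign for SLC7A11, neither called. It was -0.15 within replicates 1 to 3 (adjusted p = 0.245) and 0.13 within replicates 4 to 6 (adjusted p = 0.195).

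Against EGCG alone, which shows what resveratrol added, the combination had 5 transporters called higher and 4 lower, beside 28.7% and 29.1% of all genes. These were the 8 genes called in the combination against untreated cells, in the same directions, and SLC38A1 (log2 fold change -0.12 ± 0.0440, adjusted p = 0.0177). Both comparisons share the combination libraries. The SLC38A1 value was -0.07 without the third combination library (adjusted p = 0.0747, still called), and the call was lost without EGCG replicate 6, whose count was the highest of its group (-0.08, adjusted p = 0.136), within replicates 4 to 6 (-0.06, adjusted p = 0.220) and after scaling by library size alone (-0.05, adjusted p = 0.378). The calls of SLC1A5 and SLC38A2 in this comparison were lost within replicates 1 to 3 (0.07, adjusted p = 0.149, and 0.11, adjusted p = 0.233), and SLC7A1 was called higher with library size alone (0.09, adjusted p = 0.0116).

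The interaction, the effect of EGCG with resveratrol minus its effect without, was called for none of the 10 with edgeR, nor with DESeq2, beside 0.265% of all genes. At an unadjusted p under 0.05 there were 2, beside 1195 of the 15476 genes tested. These were SLC3A2 (0.12 ± 0.0392, adjusted p = 0.350) and SLC7A5 (0.10 ± 0.0458, adjusted p = 0.584). For SLC1A4 the interaction was 0.06 (95% interval -0.08 to 0.19), and for SLC7A11 it was 0.00 (-0.16 to 0.15). The SLC7A11 value was -0.13 within replicates 1 to 3 (adjusted p = 0.843) and 0.12 within replicates 4 to 6 (adjusted p = 0.831).

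Promoter sequences are shown for the transporter with the largest rise and that with the largest fall, and short stretches for some other members that share a motif. RefSeq windows on GRCh38.p14, from 250 bases before to 50 after a transcript start, were found for 9 of the 10 genes, in 15 windows. SLC7A11 had no entry. The motif TGATGNAA, the core letters of the amino acid response element bound by ATF4 and CEBP factors, was searched on both strands, as were TGACNNNGC, the letters of the antioxidant response element bound by NRF2, and CACGTG, the E-box. In the lines below, written 5′ to 3′ on the strand of the gene, capitals mark these motifs. The SLC1A4 stretch is chr2:64989149-64989399 (plus strand), with TGATGNAA on the other strand across the start, and the SLC7A5 stretch is chr16:87869501-87869757 (minus strand), with CACGTG 130 bases before the start and TGACNNNGC at its end. The shorter stretches are chr19:46784893-46784922, chr12:46266502-46266531 and chr13:29595663-29595692, all on the minus strand, and hold TGATGNAA. SLC3A2, which fell, also holds TGATGNAA, on the other strand, and its stretch is not shown.
SLC1A4: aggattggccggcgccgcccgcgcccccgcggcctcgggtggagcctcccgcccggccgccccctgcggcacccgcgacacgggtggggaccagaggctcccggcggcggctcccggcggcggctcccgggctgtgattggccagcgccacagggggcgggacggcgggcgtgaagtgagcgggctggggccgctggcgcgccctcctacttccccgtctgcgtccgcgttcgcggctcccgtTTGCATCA
SLC7A5: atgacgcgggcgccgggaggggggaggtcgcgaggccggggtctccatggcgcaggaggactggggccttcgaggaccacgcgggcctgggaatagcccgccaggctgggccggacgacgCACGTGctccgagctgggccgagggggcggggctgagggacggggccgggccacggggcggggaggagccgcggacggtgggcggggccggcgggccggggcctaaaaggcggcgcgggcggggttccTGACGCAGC
SLC1A5: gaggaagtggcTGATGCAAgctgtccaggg
SLC38A1: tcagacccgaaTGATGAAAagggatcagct
SLC7A1: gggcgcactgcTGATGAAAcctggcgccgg

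TGATGNAA was in 5 of the 15 windows (SLC1A4, SLC1A5, SLC38A1, SLC3A2 and SLC7A1) and in 3.62% of all 35116 windows. Among these 5 genes SLC1A4 and SLC1A5 rose with resveratrol, SLC3A2 fell and SLC38A1 and SLC7A1 were not called. The longer form TGATGNAAT, which holds the shorter one, was in none of the 15 and in 0.991% of all. TGACNNNGC was in 5 windows (SLC1A5, SLC3A2, SLC7A1, SLC7A5 and SLC7A6; 13.3% of all) and CACGTG in 2 (SLC1A5 and SLC7A5; 7.26% of all). A gene can have windows at several starts, these can overlap, and a match is a description of these letters only. For SLC1A5, TGATGNAA lay in another window (chr19:46784765-46785064) than TGACNNNGC and CACGTG (chr19:46787244-46787543). Starts can also lie inside the gene span, as for the SLC3A2 window with the motifs (chr11:62881449-62881748).

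Other carriers of amino acids at the plasma membrane were also divided. Of 35 further genes listed, 12 had enough counts to be tested. With resveratrol 5 were called higher and 5 lower, and with the combination 4 and 3 (6 and 3 without the third combination library), beside the 28.9% higher and 28.0% lower of all genes with resveratrol and 29.9% each way with the combination given above, which are also the background of the lists that follow. SLC7A8, a light chain for neutral amino acids, went from 1667 to 1726 normalized counts in untreated libraries to 2984 to 3297 with resveratrol (log2 fold change 0.88 ± 0.0311, adjusted p = 5.4e-23), and with EGCG alone it fell by 0.17 ± 0.0318 (adjusted p = 0.00209). SLC38A10 (0.63) and the leucine carriers SLC43A2 (0.32) and SLC43A1 (0.32) rose with resveratrol, and the taurine carrier SLC6A6 (-0.31) and the cationic amino acid carrier SLC7A2 (-0.47) fell. The others called, named after their values were seen, were SLC16A10, higher, and SLC1A3, SLC6A15 and SLC36A4, lower. Within replicates 1 to 3 SLC43A1 (0.19, adjusted p = 0.357) and SLC7A2 (-0.34, adjusted p = 0.277) were not called. Of the tested organelle carriers, 17 of 19 listed, 2 were called higher and 5 lower with resveratrol, a count of lower genes near that of all genes (28.0%) and a count of higher genes under it (28.9%). The lysosomal exporter SLC66A1 rose by 0.64, the other gene called higher being SLC38A9, and the mitochondrial aspartate and glutamate carriers SLC25A13 and SLC25A12 fell by 0.44 and 0.26, the ornithine carrier SLC25A15 by 0.23, the serine carrier SFXN1 by 0.33 and SLC15A4 by 0.32. Within replicates 1 to 3 SLC25A15 gave -0.07 (adjusted p = 0.563) and was not called.

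Regulators that are known to act on these genes were read as transcripts. Of 12 listed, resveratrol gave 7 called higher and 3 lower, and the combination 7 and 1, beside the same background. ATF4, an activator of amino acid carriers that is controlled mainly at translation, rose slightly, by 0.08 ± 0.0282 on the log2 scale with resveratrol (adjusted p = 0.0193) and by 0.12 with the combination. The call with resveratrol was lost within replicates 1 to 3 (0.06, adjusted p = 0.289) and with every gene of at least 1 count tested (adjusted p = 0.108). ATF3 and DDIT3, stress-induced genes, rose more, by 1.38 and 0.83 with resveratrol and by 1.80 and 1.08 with the combination. KEAP1, which holds NRF2 in check, rose by 0.16 and 0.23, CEBPG by 0.20 and 0.26, and BACH1, a repressor, by 0.12 and 0.18. The BACH1 call with resveratrol was lost under 8 of 35 alternatives, among them DESeq2 (adjusted p = 0.115), leaving out NT replicate 3 (0.164), Resveratrol replicate 1 (0.116) or Resveratrol replicate 5 (0.114), and both sets of 3 replicates (0.189 and 0.231), and that with the combination within replicates 1 to 3 (0.11, adjusted p = 0.322). NFE2L2, the gene of NRF2, gave 0.00 (adjusted p = 0.987) and 0.01 (adjusted p = 0.772), with the sign at 0.00 turning under some alternatives. After scaling by library size alone it was called higher, at 0.09 with resveratrol (adjusted p = 0.00508) and 0.09 with the combination (adjusted p = 0.00326). OTUB1, which stabilizes the SLC7A11 protein, fell by 0.14 and 0.12, calls that were lost with library size alone (-0.05 and -0.03) and, for the combination, within replicates 1 to 3 (-0.08, adjusted p = 0.232). MYC gave -0.09 with resveratrol, which was called, and -0.02 with the combination, CD44 -0.07, called, and 0.00, and BAP1 -0.03 and 0.07, not called. These small values turned on the setting. The MYC call was lost with library size alone (-0.01, adjusted p = 0.911) and within replicates 4 to 6 (-0.05, adjusted p = 0.313). The CD44 call with resveratrol was lost under 9 of 35 alternatives, among them replicates 4 to 6 (-0.04, adjusted p = 0.461) and leaving out NT replicate 1 or EGCG replicate 1, 2, 4 or 6 (-0.05 each), and CD44 was called higher in the combination with library size alone (0.08, adjusted p = 0.00843). BAP1 was called higher in the combination under 9 of 35, among them library size alone (0.15, adjusted p = 0.000564) and leaving out NT replicate 1, EGCG replicate 1, 2, 4 or 6 or Combination replicate 4 (0.08 each, adjusted p = 0.0465 to 0.0778).

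Listed ATF4 targets outside the 10 moved mostly upward, with 20 of 24 called higher and 2 lower with resveratrol, 21 and 1 with the combination, and 9 and 0 with EGCG alone (11 and 0 without the third combination library), beside 28.9% and 28.0%, 29.9% and 29.9%, and 0.905% and 0.859% of all genes. Their median log2 fold change was 0.40 with resveratrol and 0.46 with the combination, against 0.04 and 0.10 for the 10 transporters. ATF4 also acts on amino acid carriers, but the list leaves out all 10, so members that rose or fell are not in its median. NUPR1 (2.0 with resveratrol and 2.40 with the combination), FGF21 (1.57 and 1.67), INHBE (1.44 and 1.56), CHAC1 (1.25 and 1.45), ALDH1L2 (1.26 and 1.22) and PCK2 (1.07 and 1.21) rose most. Of 17 tested NRF2 targets, 14 were called higher and 2 lower with resveratrol, and 12 and 2 with the combination, beside the same shares of all genes. AKR1C1 (2.24 with resveratrol), GCLC (1.42), OSGIN1 (1.41), HMOX1 (0.85) and GCLM (0.62) were among these. The lower calls, named after their values were seen, were XPOT and ATF5 among the ATF4 targets with resveratrol, XPOT alone with the combination, and TKT and TXN among the NRF2 targets with each.

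Genes of cystine and glutathione use mostly rose with resveratrol. Of 12 tested genes of cystine and glutathione use, 11 were called higher and 1, CHAC2, lower with resveratrol, and 10 and 1, again CHAC2, with the combination, beside 28.9% and 28.0%, and 29.9% and 29.9%, of all genes. GCLC, the catalytic subunit of glutamate-cysteine ligase, went from 721 to 781 normalized counts in untreated libraries to 1966 to 2121 with resveratrol, and CHAC1, which breaks glutathione down, from 450 to 517 up to 1138 to 1204. CTH and CBS, which make cysteine from homocysteine, rose by 0.68 and 0.57 on the log2 scale with resveratrol, and GSS, glutathione synthetase, by 0.62. Of 7 tested genes of glutamine use, 4 were called higher and 2 lower with resveratrol. GPT2 rose by 0.34, GLUL by 0.28 and GOT1 by 0.12, and GOT2 and GLUD1 fell by 0.10 and 0.08. With library size alone GOT2 (-0.01) and GLUD1 (0.00) were not called, nor was GLUD1 within replicates 4 to 6 (adjusted p = 0.112) or without NT replicate 5 (-0.06), nor GOT1 within replicates 1 to 3 (adjusted p = 0.120). Of 22 tested genes of amino acid sensing, 10 were called higher and 2 lower with resveratrol, and 10 and 3 with the combination. Without the third combination library these were 10 and 3, and 9 and 4. SESN2, the leucine sensor, gave 0.55 with resveratrol and 0.82 with the combination, SESN3 0.68 and 0.55, SESN1 0.56 and 0.37 and RRAGC 0.49 and 0.49, all called, SEH1L fell by 0.32 and 0.52, and WDR24 gave 0.16, not called, and 0.39, called. WDR24 was called with resveratrol under library size alone (0.25, adjusted p = 0.0252), within replicates 4 to 6 (0.27, adjusted p = 0.0566) and without NT replicate 1 (0.21, adjusted p = 0.0755) or 3 (0.22, adjusted p = 0.0521), and the call of SESN1 in the combination was lost within replicates 4 to 6 (0.34, adjusted p = 0.103). The lists share some genes, among them 5 of the 24 ATF4 targets and 5 of the 13 genes of cystine and glutathione use.

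**Figure D4:**
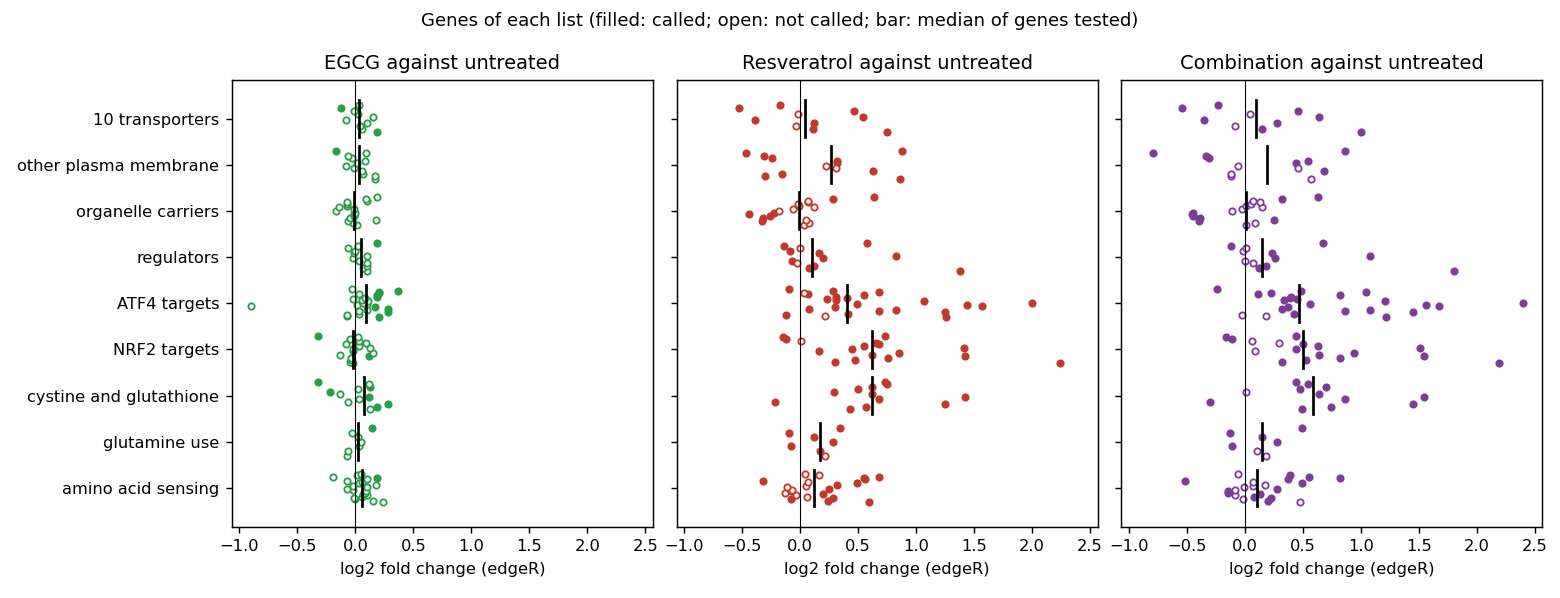
Log2 fold change (x axis, edgeR) against untreated cells of each tested gene in the 10 transporters and 8 related lists (y axis), with EGCG, resveratrol and the combination in separate panels. Filled points were called, and bars are the median of the list. The ATF4 target median is 0.40 with resveratrol, to the right of the 10 transporters at 0.04.

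The non-member genes whose pattern was most like that of SLC7A11 over the 24 libraries, by Pearson correlation of log2 CPM and as a description only, were AFF4, RAB6A, ACSL3 and CPD (each 0.97) and HECA (0.96). The libraries share the contrast between cells with and without resveratrol. AFF4 rose by 0.36, RAB6A by 0.30, ACSL3 by 0.36, CPD by 0.46 and HECA by 0.63 on the log2 scale with resveratrol. Without the third combination library AFF4, CPD, ACSL3 and RAB6A stayed among the highest 5 and ITGAV (0.98) took the place of HECA, which came to rank 15. Among the 10 transporters themselves SLC1A4 (0.84), SLC6A9 (0.83) and SLC38A2 (0.74) went with SLC7A11, and SLC3A2 (-0.92) and SLC7A5 (-0.87) against it.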

How the data were processed

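The authors isolated RNA with RNeasy, made TruSeq stranded mRNA libraries and sequenced paired ends. The submitters' notes name bcl2fastq 2.17.1.14, Trimmomatic 0.36, FastQC 0.11.5, HISAT2 2.0.4, SAMtools 1.3.1, DESeq2 1.20.0 and GRCh38. The counting program, annotation and strand setting are not given in the sources used here. The authors deposited raw counts per gene, normalized counts (a signal checked to be the raw count divided by 1 factor per library) and FPKM (checked to be the normalized count times 1 constant per gene). Tests used the raw counts of the 24 libraries together, in edgeR 4.0.16 (TMM, filterByExpr, quasi-likelihood test, Benjamini-Hochberg adjustment over 15476 genes). Calls need an adjusted p under 0.1 and p under 0.05. Means, ranges and ratios use the deposited values. Symbols, positions and overlaps come from GENCODE on GRCh38. edgeR and DESeq2 1.42.0 were tested on simulated data.

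Samples were grouped by their labels. No 2 libraries agreed within sampling noise (60 within-group comparisons, chi-square per degree of freedom at least 1.23). The 10 members and all gene lists were chosen with earlier results of these data known. Named genes are the members, every listed regulator, up to 6 called genes per other list with the largest change in the combination, and the 5 genes most like SLC7A11, and 2 of these are counted in their lists but not reported here by name. ITGAV, CHAC2, SLC38A9 and the genes marked so in the results were named after their values were seen. The biological coefficient of variation was 5.32%. Library totals (7034872 to 11735574) leave counting error small for the abundant members and larger for SLC7A6. Markers of fibroblasts and endothelium were tested in 2 of 6 and 1 of 4 genes.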

Additional observations from a re-analysis of the deposited data

Results flagged for a closer look

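In groups of 6 libraries, 5 of the 40 combinations of transporter and group had a library apart from the other 5 by Dixon's test, which chance gives in about 1 in 20. For SLC7A11, NT replicate 3 was low at 2356 normalized counts against 2604 to 2658 in the others. SLC7A5 was low in Combination replicate 2, at 31391 against 32526 to 33091. SLC38A1 was high in EGCG replicate 6, at 3712 against 3349 to 3466, and SLC7A6 was high in Combination replicate 6, at 315 against 248 to 269.

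For SLC38A2, Combination replicate 3 was low at 4828 normalized counts against 6401 to 7244. This is the library that stood apart most often over all genes, low for 453 genes and high for 217. It was not apart by this test for SLC7A11 or SLC38A1, although it held the lowest count of its group for both. What sets this library apart was not tested.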

How the results depend on the processing

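The calls of SLC7A11, SLC7A5, SLC3A2, SLC1A4 and SLC6A9 with resveratrol and with the combination, each against untreated cells, were kept under all 35 alternatives. The calls with EGCG alone were not, with 1 transporter called at an adjusted p under 0.05, 0 within replicates 1 to 3, 0 within replicates 4 to 6 and 0 to 3 when 1 library was left out. Of all genes, EGCG alone had 198 of 15476 called at an adjusted p under 0.05. It had 84 of 15691 within replicates 1 to 3 and 85 of 15442 within replicates 4 to 6. With 1 library left out it had 192 to 382 called. With resveratrol 5 transporters were called within replicates 1 to 3, where fewer libraries were tested, beside 7183 of 15691 genes. For the combination against resveratrol, 2 were called with DESeq2 size factors, with every gene of at least 1 count, with the replicate block, within replicates 4 to 6 and with a term for replicates 1 to 3 against 4 to 6, and 1 to 2 with 1 library left out, the added gene being SLC38A2. Of all genes, this comparison had 1216 of 15476 called with DESeq2 size factors and 1107 of 33693 with every gene of at least 1 count. It had 1520 of 15476 with the replicate block, 399 of 15442 within replicates 4 to 6 and 1408 of 15476 with the term. With 1 library left out it had 899 to 1242. The cause of these changes in calls was not tested. Of 2090 alternative fold changes of the transporters 2008 kept direction and side of the threshold, and of 3846 of the other named genes 3771 did. FPKM against CPM per kilobase of exon kept 35 of 36 neighbours in the order of levels, the exception being SLC6A9 and SLC1A4 with EGCG. All alternatives to the fit could be run, except that the interaction needs all groups.

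The main fit did not take the replicate numbers to pair the samples. Correlations of deviations in the 36 same-numbered pairs were -0.0111 to 0.131, with 2 above 0.1. Their median was 0.0488, against -0.0120 for pairs of different numbers, and 11 of 24 libraries correlated best with their own number, a hint in the data of shared structure. With the replicate block the calls rose from 273 to 370 genes with EGCG, from 1217 to 1520 for the combination against resveratrol and from 41 to 85 for the interaction, and SLC38A1 was called lower in the combination (-0.09, adjusted p = 0.0184, edgeR).

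Log2 fold changes that turned sign were not called, apart from those of GLUD1 and CD44 with resveratrol. With library size alone these were SLC7A11 with EGCG (0.00), SLC38A1 (0.05), SLC7A1 (0.06), GLUD1 (0.00), BAP1 (0.05) and CD44 (0.02) with resveratrol, and MYC with the combination (0.06). Within replicates 4 to 6 they were SLC7A11 with EGCG (0.01), in the combination against resveratrol (0.13) and in the interaction (0.12), SLC3A2 (-0.01) and SLC38A1 (0.03) in the combination against resveratrol, SLC7A1 (0.01) and BAP1 (0.02) with resveratrol, and SLC7A6 with EGCG (-0.04) and in the interaction (0.04). Within replicates 1 to 3 they were SLC7A5 in the combination against resveratrol (0.03), SLC38A2 in the interaction (-0.04), SLC7A1 in the combination against EGCG (0.00), NFE2L2 with resveratrol (-0.01) and CD44 with the combination (0.00). The DESeq2 Wald test gave 0.00 for SLC7A11 in the interaction, NFE2L2 with resveratrol and CD44 with the combination, DESeq2 size factors 0.00 for SLC7A11 in the interaction and NFE2L2, every gene with at least 1 count 0.00 for NFE2L2 and CD44, and at least 10 counts in every library 0.00 for SLC7A1 with resveratrol and MYC with the combination. With 1 library left out, SLC7A11 ranged from -0.04 to 0.02 with EGCG, from -0.04 to 0.05 in the combination against resveratrol and from -0.03 to 0.06 in the interaction, SLC38A1 from -0.07 to 0.01 in the combination against resveratrol, and SLC7A6 from 0.00 to 0.06 with EGCG. NFE2L2 ranged from -0.01 to 0.02 with resveratrol and from 0.00 to 0.03 with the combination, and CD44 from -0.01 to 0.02 with the combination.

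The spread over 6 libraries limits what can be seen: the 95% interval of the log2 fold change reached 0.11 for SLC7A1 and -0.18 for SLC38A1, both with the combination and neither called. Counts of SLC7A6 may hold reads of its antisense neighbour.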
